A study of Mus musculus with 18 samples.

Results

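The cell cycle and DNA replication genes described here are 46 named genes: cyclins, cyclin-dependent kinases and their partners, the replication machinery, and the kinases, checkpoint proteins and motors of mitosis. They were chosen by name, not by their values, as every probe set whose single annotated symbol is on that list. The array carried 42 of the 46 genes, of 8251 genes measured by a probe set with 1 symbol, on 58 of its 12422 probe sets that are not controls; Bub1b, Tyms, Hmmr and Ccnb1 had no probe set with a single symbol. Of these 58, 42 probe sets for 34 genes were bright enough to be tested, and the other 16 are given as values.

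The study compared dko with mdx mice at 8 weeks of age in extraocular muscle, leg muscle and heart, with 3 Affymetrix arrays in each of 6 groups (18 arrays of total RNA). The mdx mouse carries a mutation of the dystrophin gene and is labelled as the control; in this field dko names mice that lack utrophin as well, so all 6 groups share the dystrophin defect, and no group is healthy. The sources used here do not give strain, sex, pooling or whether each array is a separate animal, so p-values measure the spread between these arrays, which may be technical. In whole tissue, fewer cells of a type and less RNA per cell cannot be told apart.

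A cell that divides passes through G1, where D-type cyclins with Cdk4 and then Ccne1 with Cdk2 release E2F transcription factors. The Mcm helicase is loaded on origins before S phase. In S phase the cell copies its DNA. It then enters mitosis, which is driven by Cdk1 with its A and B cyclins and ordered by the Aurora and Polo kinases and the spindle checkpoint. Many of these genes are transcribed only in cycling cells, through E2F sites early in the cycle and through a pair of elements, the CCAAT box and the cell cycle homology region, late in it. Mature muscle fibres and adult cardiomyocytes have largely left the cycle, while dystrophic skeletal muscle holds dividing satellite cells, inflammatory cells and fibroblasts.

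The promoters of 5 members on which the results below turn are shown first. Cdk1, Cks2 and Cks1b had the 3 largest dko against mdx differences in leg muscle, and Rrm2 and Aurka were among the genes lower in heart than in leg. Each line gives the 250 bases before the annotated start in RefSeq (build GRCm38.p6), on the gene's own strand; capitals mark the CCAAT box (CCAAT, or ATTGG when read backwards), the cell cycle homology region (TTTGAA or TTCGAA) and the E2F site (TTGGCGC or TTCCCGC), searched on both strands.
Cdk1 promoter, chr10:69352913-69353162, minus strand: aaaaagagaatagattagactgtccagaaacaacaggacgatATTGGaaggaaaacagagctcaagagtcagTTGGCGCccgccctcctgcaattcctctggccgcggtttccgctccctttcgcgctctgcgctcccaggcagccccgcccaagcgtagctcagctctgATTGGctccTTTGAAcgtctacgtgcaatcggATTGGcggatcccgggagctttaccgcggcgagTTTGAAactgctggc
Cks2 promoter, chr13:51644982-51645231, plus strand: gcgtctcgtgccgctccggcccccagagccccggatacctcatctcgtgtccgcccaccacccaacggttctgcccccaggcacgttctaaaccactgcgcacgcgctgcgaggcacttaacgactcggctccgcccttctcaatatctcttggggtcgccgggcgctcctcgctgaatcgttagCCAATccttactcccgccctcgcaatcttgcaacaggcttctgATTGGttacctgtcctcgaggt
Cks1b promoter, chr3:89418292-89418541, minus strand: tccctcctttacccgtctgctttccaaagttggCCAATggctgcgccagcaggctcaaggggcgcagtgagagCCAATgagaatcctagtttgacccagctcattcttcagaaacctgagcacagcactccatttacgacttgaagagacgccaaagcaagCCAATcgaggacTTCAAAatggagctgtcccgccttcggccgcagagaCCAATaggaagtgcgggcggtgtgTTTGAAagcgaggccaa
Rrm2 promoter, chr12:24708004-24708253, plus strand: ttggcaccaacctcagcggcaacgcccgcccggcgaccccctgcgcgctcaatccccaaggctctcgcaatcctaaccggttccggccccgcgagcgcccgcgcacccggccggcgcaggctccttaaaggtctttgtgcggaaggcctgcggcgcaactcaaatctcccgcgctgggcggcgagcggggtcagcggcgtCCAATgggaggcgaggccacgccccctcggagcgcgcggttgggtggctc
Aurka promoter, chr2:172370571-172370820, minus strand: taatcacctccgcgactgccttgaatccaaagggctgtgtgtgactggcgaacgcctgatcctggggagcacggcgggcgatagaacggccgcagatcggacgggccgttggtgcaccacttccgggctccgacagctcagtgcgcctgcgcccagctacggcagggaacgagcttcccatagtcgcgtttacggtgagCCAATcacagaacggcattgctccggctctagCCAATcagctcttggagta

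The Cdk1 window held all 3 kinds of motif: 3 CCAAT boxes, 2 cell cycle homology regions and 1 E2F site. Cks1b had 4 CCAAT boxes and 2 cell cycle homology regions, Cks2 and Aurka had 2 CCAAT boxes each, and Rrm2 had 1. RefSeq promoters were matched for 32 of the 42 genes (36 promoters), and 26 of these 36 (72.2%) held a CCAAT box, against 33.8% of all 32851 promoters of the same length. An E2F site was found in 11 of 36 (30.6%, against 5.62%), a cell cycle homology region in 9 (25%, against 17.1%), and all 3 motifs in 3 (8.33%, against 0.262%). A CCAAT box read backwards can share bases with TTGGCGC, so those counts are not separate. A match describes these letters and is not evidence of a bound site. Kif20a and Stmn1, which appear below, were not among the matched genes.

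Every value below is a linear intensity, and every difference is on the scale log2(intensity + 166.7), which understates the change of dim genes. Tests used limma over all 8888 probe sets above the array's 40th percentile (319.2 to 420.2 units) in at least 3 of the 18 arrays, with two-sided p-values adjusted by Benjamini-Hochberg and called under 0.05. Array medians lay between 612.6 and 671.8 for the arrays numbered 1 and 2, and between 525.6 and 573.75 for the 6 numbered 3. Same-numbered arrays deviated together, so each comparison is also given with the number as a block (each dko array set against the mdx array of its number). On the arrays numbered 3, 30 of the 42 member probe sets were lower on average, among them Tk1 (by -1.19 on the log2 scale), and 12 were higher, among them Cks1b (by 1.34). The Utrn probe set 92507_at was higher on every mdx than on every dko array of each tissue (437.6 to 1086.5 against 219.9 to 414.3), while a second Utrn probe set overlapped in leg; whether either lies in a deleted stretch is not known here. The tissue labels were borne out: the summed cardiomyocyte markers were 117090 to 347090 in heart and 24579 to 47309 elsewhere.

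In leg muscle, Cdk1 and its binding partner Cks2 were higher in dko than in mdx, and both passed the test only with the replicate block. Cdk1 is the kinase that drives entry into mitosis, and Cks2 is a small subunit that binds it. No member was called without the block (0 of 42 probe sets, against 0.0563% of all tested). With the block 2 of 42 were called, both higher (4.76%, against 1.01% called higher and 1.2% in either direction among all tested).

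Cdk1 read 178.3, 237 and 395 on the leg mdx arrays numbered 1, 2 and 3, and 604.4, 876.7 and 1123.6 on the dko arrays. Every dko array lay above every mdx array, and means were 270.1 ± 112 and 868.2 ± 260 (SD, n = 3). The log2 difference was 1.24 with a standard error of 0.341; the limma adjusted p was 0.335, and 0.0415 with the block. Only 1 of the 3 leg mdx arrays reached the 40th percentile for Cdk1, against all 3 leg dko arrays.

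Cks2 read 49.2, 98.9 and 94.4 in leg mdx and 175.8, 615.3 and 792.6 in leg dko, again without overlap. Its log2 difference was 1.37 ± 0.416 (SE), with a limma adjusted p of 0.391, and of 0.0326 with the block. All leg mdx values of Cks2 were in the dim range below the 40th percentile, and 4 of the 18 arrays exceeded it, 2 of them leg dko. Since both genes entered the tested set partly through their high dko arrays, their calls are not independent of the filter. Neither call held when the arrays of any 1 number were left out of the blocked fit: the differences were then 1.18 to 1.28 for Cdk1 (limma adjusted p 0.162 to 0.199) and 1.11 to 1.72 for Cks2 (0.122 to 0.332).

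Cks1b, the paralogue of Cks2, had the third largest leg difference. It read 94.3, 106.1 and 858.4 in mdx and 143.7, 762.8 and 1594.7 in dko, so that the groups overlapped while each dko array lay above the mdx array of its number. The log2 difference was 0.93 ± 0.66 (SE; limma adjusted p of 1, and of 0.0956 with the block). Rrm2, the small subunit of the ribonucleotide reductase that makes DNA precursors, read 510.9, 517.5 and 459.2 in mdx and 951.1, 795.1 and 1043.2 in dko. Its groups did not overlap and were narrow, yet the difference of 0.72 ± 0.191 (SE) did not pass (limma adjusted p 0.331, and 0.0713 with the block).

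**Figure D1:**
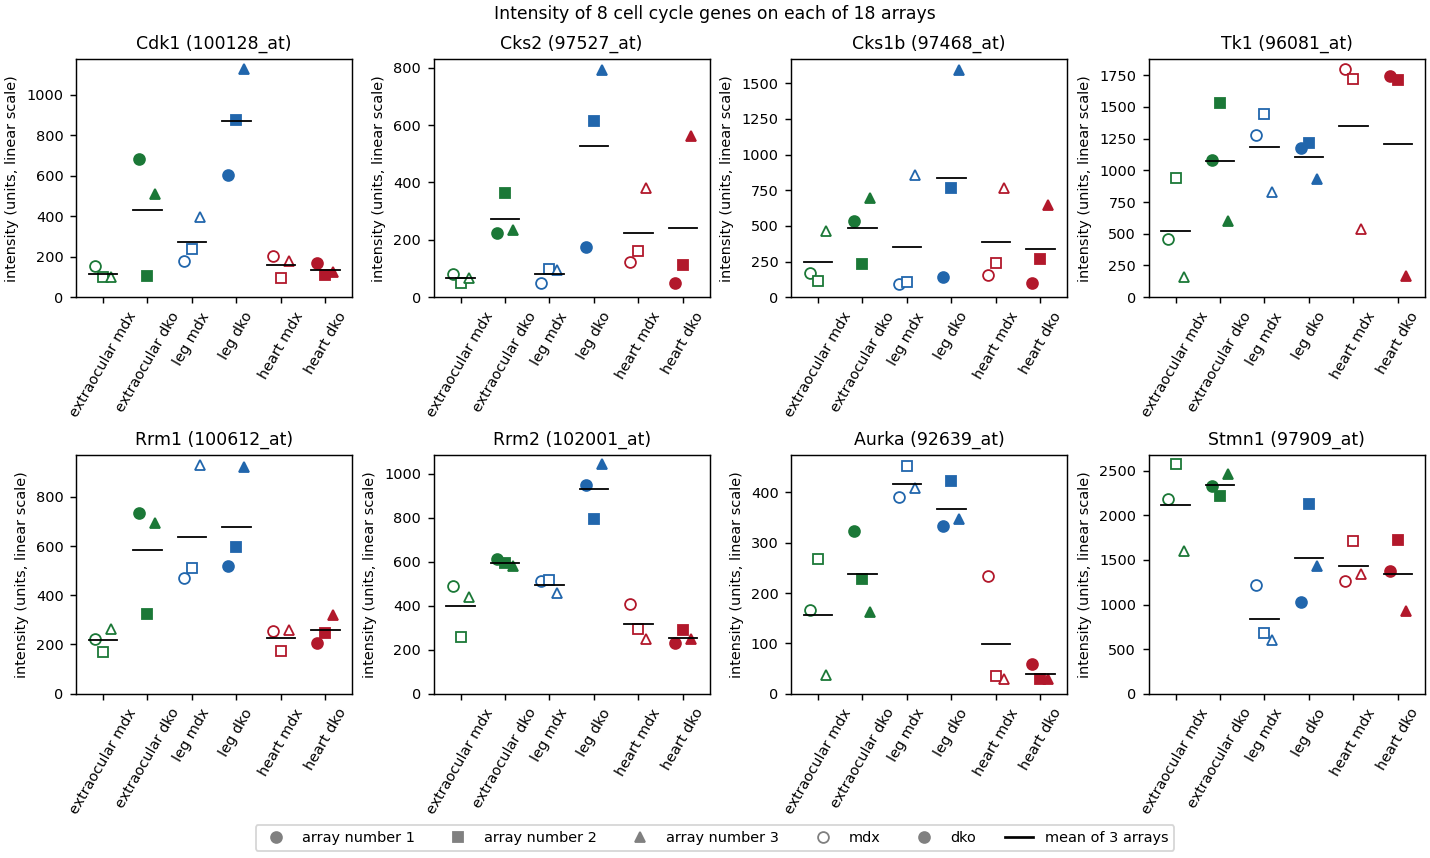
Intensity (units, linear scale) of 8 cell cycle genes on each of the 18 arrays; colours mark tissue, open symbols mdx, filled symbols dko, shapes the array number, and horizontal lines the mean of 3 arrays. Cdk1 and Cks2 lie higher on all 3 leg dko arrays than on the leg mdx arrays. Rrm1 and Rrm2 are lower on all heart arrays than on any leg array, and Rrm1 is similarly low on the extraocular mdx arrays. Tk1 is lowest on the array numbered 3 of all 6 groups.

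The 3 most negative leg differences were small. Cdc25c, the phosphatase that activates Cdk1, read 636.6, 371.4 and 264.2 in mdx and 407.5, 461.2 and 67.1 in dko (log2 difference -0.38 ± 0.527, SE). Cenpa, the centromeric histone, read 806.5, 1036.3 and 413 in mdx and 892.9, 722.2 and 338.6 in dko (-0.17 ± 0.360). Aurka, a kinase of the spindle poles, read 390.5, 452.3 and 409.7 in mdx and 333.1, 423.1 and 347.8 in dko (-0.13 ± 0.288). The groups of all 3 genes overlapped, and none passed the test.

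By role, values in leg were mostly positive. Among the tested mitotic cyclins and kinases 6 of 8 genes were positive (median 0.18), among the G1 cyclins and kinases 5 of 6 (0.25), in DNA synthesis and nucleotide supply 5 of 6 (0.27), in origin licensing 4 of 6 (0.10), and among the chromosome and spindle genes 4 of 6 (0.27). Pcna, the sliding clamp of the replication fork, read 3183.6, 2423.9 and 2094.3 in leg mdx and 3211.6, 3546.2 and 3568.4 in leg dko, a difference of 0.42 ± 0.253 (SE) that did not pass. Over the 34 tested genes 26 were positive with a median of 0.18, against 44.7% positive and a median of -0.04 over all 8888 probe sets. Groups did not overlap for 6 of 42 probe sets, all higher in dko (Cdk1, Cks2, Mcm4, Pcna, Pola1 and Rrm2), against 5.02% of all tested probe sets that were higher without overlap and 4.93% that were lower. At an unadjusted p under 0.05 there were 4 of 42, all higher (9.52%, against 6.26% of all tested in either direction and 3.9% higher). With the block there were 6, all higher (14.3%, against 17.8% in either direction and 8.52% higher).

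In extraocular muscle no member was called, with or without the block (0 of 42, against 0.0225% of all tested, and 0.158% with the block). At an unadjusted p under 0.05 there were 5 of 42, all higher in dko. Their share was 11.9%, against 2.21% of all tested in either direction and 1.35% higher. With the block there were 9 of 42, all higher (21.4%, against 8.07% in either direction and 4.14% higher). The largest differences were those of Tk1, Cdk1 and Rrm1.

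Tk1, the thymidine kinase of S phase, read 460.2, 942.5 and 160.4 in extraocular mdx and 1079.8, 1532.6 and 597.1 in extraocular dko. Each dko array was higher than the mdx array of its number, although the groups overlapped (log2 difference 0.94 ± 0.606, SE; limma adjusted p of 1, and of 0.234 with the block). The second tested Tk1 probe set, 161150_at, had a difference of 0.17 there, so the size rests on 1 probe set.

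Cdk1 read 152.9, 98.6 and 97.6 in extraocular mdx and 682.5, 103.3 and 510.9 in extraocular dko. The dko array numbered 2 lay within the mdx range, and the other two were far above it. The difference of 0.93 ± 0.341 (SE) did not pass (limma adjusted p of 1, and of 0.289 with the block).

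Rrm1, the large subunit of ribonucleotide reductase, read 220.8, 169.7 and 263.6 in extraocular mdx and 733.4, 324.6 and 692.4 in extraocular dko. The groups did not overlap, and the difference of 0.92 ± 0.271 (SE) had a limma adjusted p of 0.967, and of 0.0816 with the block. Rrm1 in extraocular dko was thus in the range of the leg arrays (468.5 to 930.6) on the arrays numbered 1 and 3. Cks2, Kif23, Rrm2 and 1 probe set each of Kif20a, Mcm5 and Plk1 were likewise without overlap. These 7 of 42 were all higher in dko, against 2.99% of all tested probe sets; 0 were lower, against 2.66%.

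Kif23, a motor of the spindle midzone, read 148.9, 335.4 and 109.6 in extraocular mdx and 553.4, 423.2 and 487.4 in extraocular dko (difference 0.89, limma adjusted p of 1, and of 0.467 with the block). Lig1, Ccnd2 and Ccnd1 stood at the negative end. Lig1, the ligase that joins Okazaki fragments, read 1242.1, 671.3 and 720.5 in mdx and 214.7, 846.9 and 486.8 in dko (-0.68 ± 0.343, SE). Ccnd2, a D-type cyclin, read 129.1, 68 and 357.7 in mdx and 87.2, 58.3 and 100.5 in dko (-0.42 ± 0.543). Ccnd1, another D-type cyclin, read 2633.7, 1420.4 and 1682.3 in mdx and 2646.9, 1503.4 and 1354.5 in dko (-0.07 ± 0.337). All 3 overlapped between groups, and the sign of Ccnd1 turned when 1 of several single arrays was left out.

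By role, all 8 tested mitotic cyclins and kinases were positive in extraocular muscle (median 0.34), as were all 6 licensing genes (0.15). In DNA synthesis 4 of 6 were positive (0.33), among the G1 cyclins and kinases 4 of 6 (0.06), and among the chromosome and spindle genes 5 of 6 (0.24). Over the 34 tested genes 28 were positive with a median of 0.24, against 48.8% and -0.01 over all probe sets. In 14 of 34 genes the dko array was higher in all 3 same-numbered pairs and in 1 lower (41.2% and 2.94%, against 14.6% and 15.9% of all tested probe sets). In leg the counts were 10 and 1 (29.4% and 2.94%, against 16.5% and 23.4%), and in heart 5 and 9 (14.7% and 26.5%, against 13.4% and 14.4%).

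In heart no member was called with or without the block (0 of 42, against 0% of all tested in both fits), and 0 of 42 had an unadjusted p under 0.05, against 1.46% of all tested. No probe set had groups without overlap, in either direction, against 1.76% higher and 2.16% lower among all tested.

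Ccnd2 had the largest positive value in heart, with 115.2, 182.9 and 1045.7 in mdx and 148.8, 417.6 and 1279.3 in dko (0.39 ± 0.543, SE). Mcm7, a helicase subunit, followed at 0.28 ± 0.256, with 708.4, 454 and 733.4 in mdx and 755, 655.3 and 977.7 in dko. Ccna2, the S phase and mitotic cyclin A, read 1467.5, 1229.4 and 811.4 in mdx and 2343.8, 2053.3 and 468.2 in dko (0.22 ± 0.513). Each of these ranges overlapped, and Ccnd2 and Ccna2 turned negative without 1 of several single arrays.

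Mcm5, also a helicase subunit, read 1623.6, 1020.8 and 1392 in heart mdx and 766.8, 1106.6 and 524.7 in heart dko (-0.67 ± 0.317, SE; limma adjusted p of 1). Lig1 read 469.4, 623.5 and 502.9 in mdx and 144.6, 527.4 and 364.9 in dko (-0.52 ± 0.343). Tk1 read 1795, 1720.5 and 539.1 in mdx and 1739.9, 1709.6 and 167.2 in dko (-0.38 ± 0.606), so its difference lay in the array numbered 3. Of the 34 tested genes 11 were positive in heart (median -0.09, against 47.5% and -0.01 over all probe sets). Only 1 of 8 mitotic cyclins and kinases was positive, and 4 of 6 licensing genes.

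**Figure D2:**
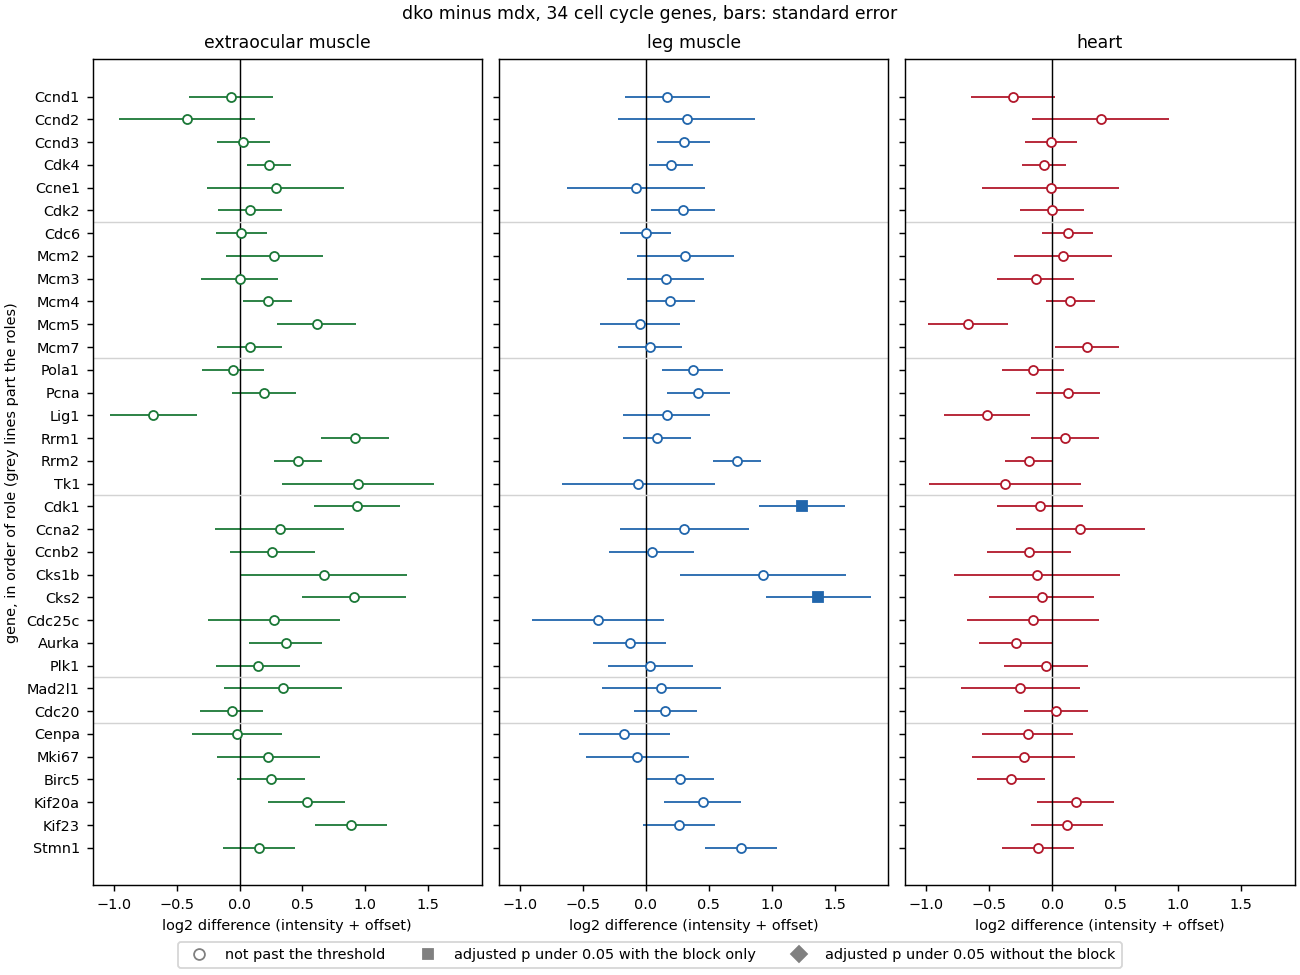
Difference of dko minus mdx in each tissue for the 34 tested genes, on the scale log2(intensity + 166.7), with bars of 1 standard error and grey lines between roles; squares passed an adjusted p of 0.05 with the block alone. Points lie mostly to the right of 0 in extraocular (28 of 34) and leg muscle (26 of 34) and mostly to the left in heart (23 of 34), and Cdk1 and Cks2 in leg are the called genes.

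Across tissues, 21 genes were positive in both extraocular and leg muscle, and 13 of these were negative in heart. In all 3 tissues 8 genes were positive and 1, Cenpa, negative. The difference of the dko effect between tissues was tested directly, and 0 of 42 probe sets were called in any of the 3 pairs, with or without the block. Without the block 0% of all tested were called in each pair; with it 0.0338% were called for extraocular minus leg, 0.0675% for heart minus leg and 0% for heart minus extraocular. At an unadjusted p under 0.05 without the block, 1 of 42 differed between extraocular and leg (against 2.03% of all tested). Of the 42, 4 were lower in heart than in leg (against 2.91% in either direction and 1.96% lower). Likewise 4 were lower in heart than in extraocular muscle (against 1.4% in either direction and 0.979% lower). With the block 2 differed between extraocular and leg (against 8.98%). Between heart and leg 6 differed, all lower in heart (14.3%, against 11.1% in either direction and 6.02% lower). Between heart and extraocular muscle 11 differed, of which 10 were lower in heart (26.2%, against 5.96% in either direction). The opposite signs are therefore a description.

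Averaged over the 3 tissues, 0 of 42 were called (against 0.09% of all tested, and 0.788% with the block), with 6 at an unadjusted p under 0.05 (against 4.95%). Cks2 had the largest mean difference, 0.73 ± 0.240 (SE; limma adjusted p 0.561, and 0.0501 with the block), and Cdk1 had 0.69 ± 0.197 (0.369, and 0.0515 with the block).

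Genotype differences in marker lists of other cell types varied by list and tissue. In extraocular muscle 11 of 11 tested macrophage markers were positive (median 0.96), and their summed level was 18310 to 22712 in mdx and 44887 to 48022 in dko. In leg 11 of 11 were positive (0.97; 24323 to 50126 in mdx and 48733 to 95785 in dko), and in heart 4 of 11 (22480 to 28022 and 22359 to 28624). Markers of satellite cells and regenerating fibres were positive for 7 of 7 in leg (16133 to 21463 in mdx and 28122 to 34028 in dko), for 3 of 7 in extraocular muscle (26175 to 40608 and 31527 to 38969) and for 4 of 7 in heart (4953.7 to 6902.7 and 4178.2 to 7022.7). Fibroblast markers were positive for 5 of 6 in extraocular muscle (80590 to 123710 in mdx and 94935 to 154970 in dko), for 6 of 6 in leg, 1 of them called (74128 to 170760 and 111130 to 153700), and for 5 of 6 in heart (42907 to 60043 and 42004 to 71674). Other lists had negative differences: in extraocular muscle 0 of 6 endothelial markers were positive (10562 to 14383 in mdx and 8281.8 to 11512 in dko), and 0 of 4 tested markers of skin and mucosal epithelium, whose sums over all 6 did not overlap (4564.6 to 6494.8 in mdx and 2749.5 to 3772.3 in dko). In leg 1 of 6 endothelial markers was positive (10494 to 10628 and 7469.6 to 9599.6). Some markers were dim, below the 40th percentile on every array of a group. Among them were 4 of 7 satellite cell markers and 3 of 12 macrophage markers in each heart group. In extraocular dko 4 of 6 epithelial markers were so, against 1 in extraocular mdx. The part of these cells in the values of the cell cycle genes was not tested.

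The tissues themselves, averaged over both genotypes, differed more clearly, and heart was lower than leg for several S phase and mitotic genes. The 3 tissue comparisons share arrays with each other. In heart against leg 6 of 42 were called, all lower in heart (14.3%, against 19.1% of all tested in either direction, and 9.5% lower), and with the block 14 (33.3%, against 35.5%). Over both directions the members were called no more often than probe sets in general.

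Aurka read 390.5, 452.3 and 409.7 in leg mdx and 333.1, 423.1 and 347.8 in leg dko. In heart it read 232.9, 35.9 and 29.6 in mdx and 58.4, 29.5 and 29.5 in dko. No heart array reached the lowest leg array, and the difference of -1.30 ± 0.204 (SE) had a limma adjusted p of 0.000212. Aurka passed the 40th percentile on leg arrays alone, 4 of 18, so its place in the tested set came from leg and its call is not independent of the filter.

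Rrm2 lay between 230.6 and 406.2 on the 6 heart arrays and between 459.2 and 1043.2 on the 6 leg arrays, with no overlap (-0.92 ± 0.135, SE; limma adjusted p 0.000106). Rrm1 lay between 172.2 and 318.1 in heart and between 468.5 and 930.6 in leg (-0.98 ± 0.192, SE; adjusted p 0.00143). Both subunits of the reductase were thus separated in every array by these probe sets. The other Rrm1 probe set, 161731_at, was too dim to test and ran the other way, with means of 190.5 ± 120 and 206.3 ± 183 in heart mdx and dko against 86.77 ± 17.9 and 72.07 ± 44 in leg (SD, n = 3). The tested Rrm1 probe set read 636.6 ± 256 in leg mdx and 679.1 ± 213 in leg dko.

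Cdk1 lay between 96.7 and 201.6 in heart against 178.3 to 1123.6 in leg (-1.08 ± 0.241, SE; limma adjusted p 0.00418). In mdx the tissues overlapped, with heart arrays at 201.6, 96.7 and 177.9 and leg arrays from 178.3; in dko they did not, with heart arrays at 170.5, 111.6 and 124.2 and leg arrays from 604.4. Kif20a, a kinesin of cytokinesis, read 165.2, 196.4 and 367.2 in leg mdx, 145.7, 490.4 and 635.2 in leg dko, 62, 53.6 and 78.2 in heart mdx, and 86, 49.8 and 165.8 in heart dko. Its difference was -0.93 ± 0.215 (SE; limma adjusted p 0.00552), and its tissues overlapped at 1 heart dko array. The other Kif20a probe set, 160501_at, was too dim to test, and its direction differed between genotypes. Its means were 73.7 ± 27.1 and 44.23 ± 5.55 in heart mdx and dko, against 42.07 ± 6.63 and 91.93 ± 67.2 in leg (SD, n = 3). The tested Kif20a probe set passed the 40th percentile on 3 arrays, all of them leg. It entered the tested set only through the tissue where it is high, and its call is not independent of the filter. No heart array passed it for Cdk1 or Rrm1 either; their other passing arrays were extraocular dko.

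The sixth call was Cdc20, the activator of the complex that ends mitosis. Cdc20 read 1522.9, 1144.3 and 1026.6 in leg mdx and 1384.1, 1307.5 and 1429.5 in leg dko, against 1140.7, 831.2 and 526.6 in heart mdx and 825.1, 821 and 814.4 in heart dko. The difference of -0.58 ± 0.178 (SE; limma adjusted p 0.0314) fell short of the test (0.0501 to 0.0844) when any 1 of the 12 arrays was left out, other than heart mdx 1 and leg mdx 3. The 5 other calls held in all 12 such fits; without the arrays numbered 3 Cdk1 no longer passed (-0.91, adjusted p 0.0736). With the block Ccnd1, Ccnd2, Pola1 and Cenpa were higher in heart; Ccnd2 read 51.8 to 296.3 in leg and 115.2 to 1279.3 in heart (1.11 ± 0.384, SE; limma adjusted p 0.0548, and 0.00337 with the block), and in heart was highest on the arrays numbered 3. Ccnd2 passed the 40th percentile on 3 heart arrays and 1 extraocular array and on no leg array, so this call too is not independent of the filter.

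**Figure D3:**
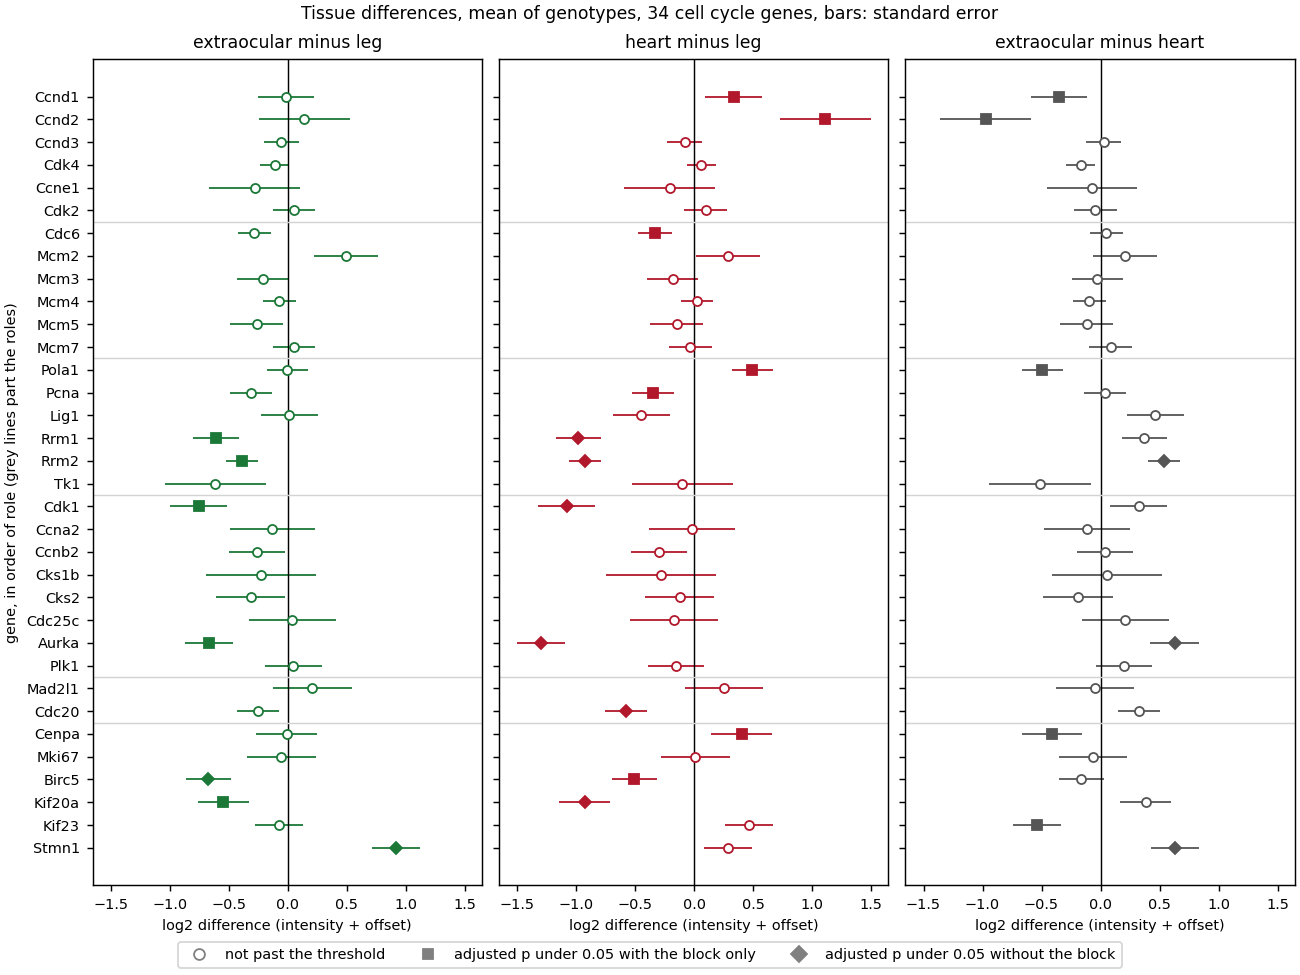
Differences between tissues, averaged over mdx and dko, for the 34 tested genes on the scale log2(intensity + 166.7), with bars of 1 standard error; diamonds passed an adjusted p of 0.05 without the block and squares with the block alone. In heart minus leg, Aurka, Cdk1, Rrm1, Kif20a, Rrm2 and Cdc20 lie to the left of 0, and Stmn1 lies to the right in both comparisons of extraocular muscle.

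In extraocular against leg muscle 2 of 42 were called (4.76%, against 7.74% of all tested), and with the block 8 (19%, against 20%), shares below or near those of all probe sets. Stmn1, a protein that takes microtubules apart and is abundant in dividing and nerve cells, was higher in extraocular muscle by its tested probe set. It read 2182.5, 2574.7 and 1598.2 in extraocular mdx and 2333.2, 2218.6 and 2465.3 in extraocular dko, against 1222.4, 676.1 and 605.4 in leg mdx and 1023.1, 2123.9 and 1428.1 in leg dko. The tissues overlapped only through leg dko 2. The difference of 0.92 ± 0.202 (SE; limma adjusted p 0.00912) held in all 12 fits that left out 1 array. It did not hold without the arrays numbered 3 (0.90, limma adjusted p 0.0566). The other Stmn1 probe set, 97910_at, was too dim to test and was not higher in extraocular muscle. Its means were 71.1 ± 22.1 and 49.77 ± 2.9 in extraocular mdx and dko. They were 75.63 ± 23.5 and 50.77 ± 15.2 in leg, and 89.03 ± 30.4 and 68.17 ± 14.7 in heart (SD, n = 3).

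Birc5, the survivin of the chromosomal passenger complex, was lower in extraocular muscle. It read 69, 290.4 and 328.7 in extraocular mdx and 230.3, 276.5 and 340.5 in extraocular dko, against 349.7, 402.5 and 551.9 in leg mdx and 572, 541.3 and 543.5 in leg dko. Every leg array was above every extraocular array, none of which reached the 40th percentile (-0.67 ± 0.191, SE; limma adjusted p 0.0407). Birc5 passed that percentile on 1 leg mdx, 3 leg dko and 1 heart mdx array. It thus entered the tested set mainly through leg, where it is high, and its call is not independent of the filter. This call held without extraocular mdx 2, extraocular mdx 3 or leg mdx 1, and was lost without any other single array of these tissues (adjusted p up to 0.0947; difference -0.51 without extraocular mdx 1).

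In extraocular muscle against heart 9 of 42 were called with the block (21.4%, against 30.1% of all tested). Without it 3 were called, all higher in extraocular muscle (7.14%, against 15.2% of all tested in either direction and 7.91% higher). They were Stmn1 (0.63 ± 0.202, SE; limma adjusted p 0.0457), Aurka (0.63 ± 0.204, 0.0493) and Rrm2 (0.54 ± 0.135, 0.0118). Stmn1 read 927.7 to 1719.1 on the heart arrays, Aurka 37.4 to 322.5 in extraocular muscle, and Rrm2 257.5 to 612.3 there. All 3 genes overlapped between these tissues. For Aurka, no extraocular or heart array passed the 40th percentile, and the gene entered the tested set through leg arrays alone. Its call here therefore compares values that are all in the dim range. Rrm2 held in all 12 fits that left out 1 array, but not without the arrays numbered 3 (0.45, limma adjusted p 0.115; 0.0625 with the block). Stmn1 did not pass without those arrays either (0.57, limma adjusted p 0.149); with 1 array left out it held only without extraocular mdx 3, heart dko 2 or heart mdx 2, and Aurka only without extraocular dko 3, extraocular mdx 3 or heart mdx 1.

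**Figure D4:**
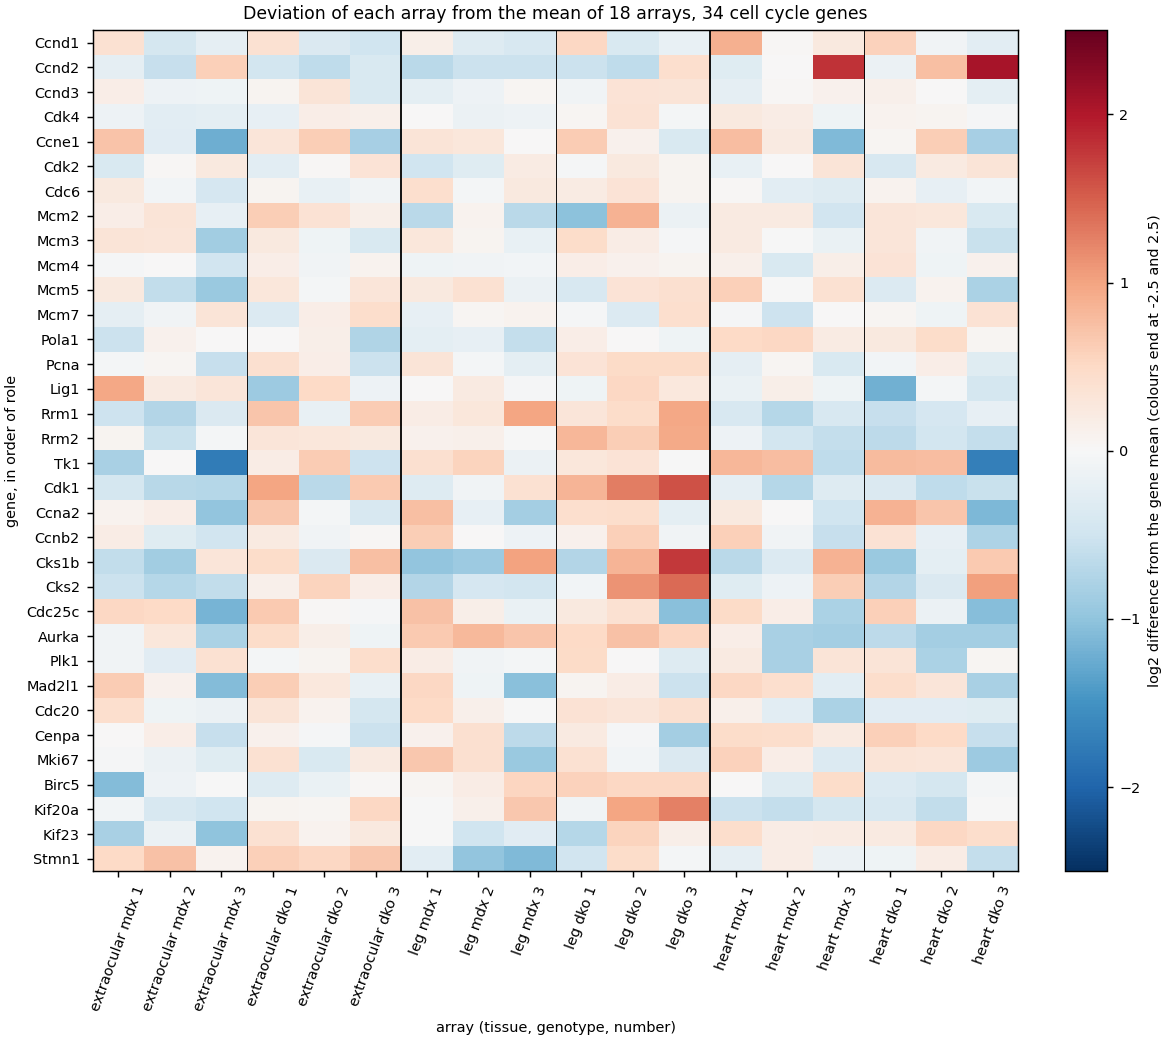
Deviation of each array (columns, by tissue, genotype and number) from the mean of the 18 arrays for the 34 tested genes (rows, by role), as a log2 difference of intensity + 166.7; red is higher and blue lower. Cdk1, Cks1b, Cks2 and Kif20a are red on the leg dko arrays numbered 2 and 3, several genes such as Tk1, Cdc25c and Mad2l1 are blue on arrays numbered 3 of many groups, and Ccnd2 reaches 2.06 on heart dko 3.

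The 16 probe sets that were not tested included all those of Ccne2, Mcm6, Prim1, Prim2, Aurkb, Bub1, Top2a and Kif11. Their values did not exceed 863.3 units, and 10 of the 16 were highest on a leg dko array, 5 of these on leg dko 2. Of the 42 tested member probe sets, 3 were highest on leg dko 1, 6 on leg dko 2 and 6 on leg dko 3. The share among all probe sets of the array was not computed, so these counts are a description of dim values. Aurkb, the kinase of the chromosomal passenger complex, read 283.2, 863.3 and 193.4 in leg dko and 261.9, 234 and 145.4 in leg mdx. Top2a, the topoisomerase that untangles sister chromatids, read 64.7, 550.9 and 131 in leg dko and 70.7, 251 and 98.6 in leg mdx. Kif11, the motor that separates spindle poles, read 115, 472.2 and 280.8 in leg dko and 293.9, 169.1 and 36.1 in leg mdx. These 3 genes were thus highest on leg dko 2 and overlapped between genotypes. The untested probe set of Mki67, 99457_at, read 259.9, 237.2 and 278.5 in leg mdx and 309.3, 675.4 and 672.3 in leg dko, without overlap, whereas its tested probe set, 161931_r_at, overlapped (-0.07).

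Probe sets of 1 gene did not always move together. Of the 7 genes with several tested probe sets, 4 differed in sign between them for dko against mdx in extraocular muscle, 4 in leg and 1, Lig1, in heart. In heart against leg the Tk1 probe set 161150_at differed by -1.36, and 96081_at by -0.10. Each gene's value above is therefore that of 1 probe set, the one with the highest mean over the 18 arrays.

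Other genes of the pathway were 74 tested of 92 on the array: inhibitors of cyclin-dependent kinases, E2F and pocket proteins, p53 and its targets, and further replication and mitosis genes. Between dko and mdx 0 of 74 were called in any tissue, with or without the block. At an unadjusted p under 0.05 there were 3 in extraocular muscle (4.05%, against 2.21% of all tested), 4 in leg (5.41%, against 6.26%) and 1 in heart (1.35%, against 1.46%), and 47, 37 and 37 were positive. In heart against leg 3 rose and 7 fell (13.5%, against 19.1% of all tested), a share no higher than that of probe sets in general. Gmnn, the geminin that blocks a new round of origin licensing, read 265.1 ± 33.3 in leg mdx and 268.9 ± 63.1 in leg dko, against 1153 ± 395 in heart mdx and 1357 ± 167 in heart dko (SD, n = 3; log2 difference 1.69, limma adjusted p 2.21e-06). Its extraocular means were 237 ± 61.1 in mdx and 263.6 ± 139 in dko. Its leg and extraocular means all lay below the 40th percentile (319.2 to 420.2 units), so Gmnn entered the tested set mainly through heart. The calls of Gmnn are therefore not independent of the filter. Pola2, the accessory subunit of DNA polymerase alpha, fell by 2.25 on the log2 scale (4.47e-06), the kinase inhibitor Cdkn1c by 2.1 (5.06e-05) and the stress gene Gadd45a by 1.65 (7.05e-07). The Pola2 heart means were 290.2 ± 69 in mdx and 343.3 ± 41.7 in dko, below or within the range of the 40th percentile. Its leg means were 1974 ± 671 and 2443 ± 682 (SD, n = 3). Pola2 thus entered the tested set mainly through tissues where it is high, and its calls against heart are not independent of the filter. In extraocular against leg muscle 2 fell, Kif22 and Pola2 (2.7%, against 7.74%). In extraocular muscle against heart 5 rose and 2 fell, Gmnn among the latter (9.46%, against 15.2%). Pola1, the catalytic partner of Pola2 and a member, lay the other way between heart and leg: it read 221 to 490.5 in leg and 444.1 to 680.7 in heart (0.49 ± 0.174, SE; limma adjusted p 0.0614, and 0.0117 with the block).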

How the data were processed

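Total RNA from 18 muscle samples was measured on Affymetrix mouse arrays. The deposited table holds the authors' intensity values on a linear scale, 1 per probe set and array; arrays had been scaled to a common mean (1500.69 to 1501.15 with 2% trimmed from each tail, read from the values), and no source used here names the program that made them. Depth is not defined for arrays; their number limits the precision. Groups and replicate numbers came from the sample titles, and 0 columns belonged to other series.

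The 66 control probe sets were left out. Gene symbols came from the supplied platform annotation, and only probe sets with 1 symbol were named (10833 of 12422). Values were turned into log2(intensity + 166.7), where 166.7 is the middle of the 18 arrays' 25th percentiles. Probe sets above the 40th percentile in at least 3 arrays (8888) entered 1 limma fit (limma 3.58.1, R 4.3.3) with a mean for each of the 6 groups, which left 12 residual degrees of freedom and gave 3.52 prior ones, and Benjamini-Hochberg adjustment ran over all 8888. The script was tested on simulated data for dko against mdx in leg (8888 probe sets): 33% of changes of 1 and 81% of changes of 2 on the log2 scale were recovered, with 7 false calls. The simulated noise was independent between arrays, unlike that of the data, and the fit with the replicate block was not tested in this way.

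Same-numbered arrays deviated together, within and between tissues. Deviations from group means correlated at 0.404 to 0.751 between same-numbered arrays of a tissue (9 pairs). Between same-numbered arrays of other tissues they correlated at 0.327 to 0.74 (36 pairs), and between arrays of other numbers at -0.628 to 0.311 (90 pairs). No source used here says what the number marks. The replicate block used the number within tissue for genotype comparisons and the number common to all arrays for tissue comparisons.

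Genes named with every array's value were those called between genotypes in either fit, the 3 most positive and 3 most negative genotype differences of each tissue, and the 5 largest called tissue differences. Cdc20, Kif23, Pcna, the untested and the other pathway genes with values were named after those values were seen. Rrm2 was named by its tissue differences, and its leg genotype difference (0.721) was described outside these rules. That of Stmn1 in leg was larger (0.755). The members, lists and tests were chosen with earlier results of these data known. Promoter sequences came from RefSeq; no genome was used here.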

Additional observations from a re-analysis of the deposited data

How the results depend on the processing

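Alternatives were the replicate block, an offset of 50 or 500, no filter on dim probe sets, scaling to the 75th percentile, quantile normalization, a fit of 1 tissue alone and leaving out each array; leaving out 1 number with the block, or the arrays numbered 3 without it, was added after seeing the data. Between dko and mdx the count of called member probe sets stayed at 0 of 42 in each of these, except 2 in leg with the replicate block; leaving out any 1 number with the block gave 0. For extraocular against leg the main count of 2 became 8 with the replicate block, 1 with an offset of 50, 1 without the arrays numbered 3, 1 to 3 without 1 array, and 2 to 6 with the block without 1 number. For heart against leg 6 became 14 with the replicate block, 5 to 7 without 1 array, and 8 to 10 with the block without 1 number. For extraocular against heart 3 became 9 with the replicate block, 1 without the filter, 1 to 3 without 1 array, and 2 to 5 with the block without 1 number. The cause of these shifts was not tested.

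Of 548 values of 29 named gene differences, 534 kept their direction. The 14 that did not belonged to differences between dko and mdx that were not called. Ccnd1 in extraocular muscle became 0.0359 without extraocular dko 2, 0.103 without dko 3, 0.169 without mdx 1, and 0.0402 without the arrays numbered 3, with the block or without it; the range without 1 array was -0.34 to 0.169. In heart Ccna2 became -0.138 without dko 1, -0.0497 without dko 2 and -0.00203 with the block without number 2 (range without 1 array -0.138 to 0.853). Ccnd2 became -0.198 without heart dko 3 and -0.0166 without heart mdx 1 (range -0.198 to 1.04), and Tk1 0.458 without heart dko 3 (range -0.859 to 0.458). In leg Cdc25c became 0.0723 without dko 3 (range -0.64 to 0.0723), and Cenpa 0.143 without dko 3 and 0.0558 without mdx 2 (range -0.471 to 0.143). Neither rescaling moved the median of all probe sets by as much as 0.1. Values below the 40th percentile, which include most of those of Cks2, Cdk1, Aurka and Kif20a, are near the dim end of the array, and their differences are the least certain.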
